A study of Mus musculus with 12 samples.

Results

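The semaphorins are guidance ligands, the plexins their receptors and the neuropilins co-receptors, and the transcripts of all 3 families were followed in pancreatic tumor cells without secreted DKK3. The genes are defined by name, as every protein-coding gene of the count table called Sema3 to Sema7 with a letter, Plxna to Plxnd with a number, Nrp1 or Nrp2. This gave 31 genes of 57186 in the table, of which 21700 were protein-coding. They comprised 20 semaphorins, 9 plexins and 2 neuropilins. Of the 31 genes, 27 passed the filter on low counts and were tested. Sema3g and Plxnc1, with 8 counts each over all libraries, Plxnb3 with 6 and Sema5b with 0 did not pass it.

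RNA was sequenced from 3 mouse tumor cell lines, DDKC_9750, DDKC_9790 and DDKC_9804, each left untreated or given rDKK3, a commercial recombinant form of the soluble DKK3 protein. All 3 lines are Dkk3-/- and carry Ptf1a Cre/+, a Cre under the promoter of the pancreatic gene Ptf1a, so every library, untreated ones included, came from tumors of mice that lacked secreted DKK3 in all tissues. The paper describes an intracellular product of the same locus, DKK3B, whose transcript it found unchanged in acinar cells with this knockout. Each line and condition had 2 libraries, 12 in all, and no source used here gives the age of the mice or the dose of rDKK3 for the RNA samples. The comparison asks what transcripts change when the missing secreted protein is given back to tumor cells. The 2 libraries of a line and condition differed by less than sampling noise once a shift of each gene, common to all 6 pairs of lower- and higher-numbered libraries, was taken out (deviance per degree of freedom 0.769 over 12979 genes, 6.42 before it, so that genes did differ between the lower- and higher-numbered libraries), so they were summed and counted as 1 sample. Whether they were separate cultures is not stated, and n is therefore 3 lines per condition throughout.

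Semaphorins bind plexins through a shared sema domain, and the plexins pass the signal on through a cytoplasmic domain that acts on small GTPases and the cytoskeleton. Class 3 semaphorins are secreted, and most of them need a neuropilin beside the plexin, whereas classes 4, 5 and 6 are transmembrane proteins and Sema7a is tethered to the membrane by a lipid anchor. First known from axon guidance, the system also acts in blood vessel patterning, immune cell traffic and the migration of carcinoma cells, and axon guidance genes are recurrently altered in pancreatic cancer.

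The libraries held 3822987 to 24541083 counts, and the rDKK3 libraries (median 6579895.5) were shallower in the sums of every line than the untreated ones (median 14250180.0), though the single libraries of DDKC_9790 overlapped. A count of 3 in 1 library, taken here as the floor, stood for 0.124 to 0.743 CPM, which are counts scaled to the library total by the TMM method. Dkk3 itself had 1 count in 1 of the 12 libraries, but no line with an intact gene is here to show what these cells would express, so the count does not check the knockout. The epithelial markers Krt8, Krt18, Krt19, Epcam, Cdh1, Sox9 and Krt7 were all detected, Epcam at 2.03 CPM or less, with summed levels of 5262 to 10010 CPM untreated and 4030 to 8133 CPM with rDKK3, lower with rDKK3 in each line. The 4 keratins were lower in each line, whereas Sox9 was higher in each (108 to 144, 133 to 149.5 and 296 to 390.5 CPM in DDKC_9750, DDKC_9790 and DDKC_9804) and Cdh1 higher in DDKC_9750 (788 to 1032 CPM) and DDKC_9804 (306 to 352 CPM). Of the 8 leukocyte markers, Adgre1, Lyz2 and Cd3e had 0 counts and the list summed to 9.56 to 46.3 CPM, and of the 6 endothelial markers Cldn5 had 0 counts and the list summed to 0.956 to 17.5 CPM. The part of these lists in the results below was not tested.

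Promoter sequence is shown for the 4 genes whose unadjusted p for rDKK3 was under 0.05, to show how different the start regions of genes with such a difference were. Each is the 250 bases before the transcript start in RefSeq (GRCm38.p6), 5′ to 3′ on the gene's own strand, with CpG dinucleotides in capitals. The region of Nrp1 is chr8:128358823-128359072 on the plus strand, that of Plxnd1 chr6:115995006-115995255 on the minus strand, that of Sema3c chr5:17574566-17574815 on the plus strand and that of Sema3d chr5:12382916-12383165 on the plus strand.
Nrp1: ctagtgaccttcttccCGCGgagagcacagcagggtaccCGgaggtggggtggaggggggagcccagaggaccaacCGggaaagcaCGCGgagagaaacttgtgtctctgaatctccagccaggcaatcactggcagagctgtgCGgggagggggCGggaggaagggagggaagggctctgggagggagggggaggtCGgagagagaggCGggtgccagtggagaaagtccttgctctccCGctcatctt
Plxnd1: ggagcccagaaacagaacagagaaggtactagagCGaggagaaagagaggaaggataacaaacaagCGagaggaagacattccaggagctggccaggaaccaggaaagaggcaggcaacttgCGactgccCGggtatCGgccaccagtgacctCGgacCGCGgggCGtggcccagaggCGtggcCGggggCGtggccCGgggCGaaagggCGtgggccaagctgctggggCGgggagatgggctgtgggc
Sema3c: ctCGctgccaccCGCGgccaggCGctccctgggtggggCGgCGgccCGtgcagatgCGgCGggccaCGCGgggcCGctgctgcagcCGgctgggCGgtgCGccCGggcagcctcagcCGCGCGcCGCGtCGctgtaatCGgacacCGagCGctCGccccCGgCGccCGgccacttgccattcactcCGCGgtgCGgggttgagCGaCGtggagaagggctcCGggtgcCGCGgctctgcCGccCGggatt
Sema3d: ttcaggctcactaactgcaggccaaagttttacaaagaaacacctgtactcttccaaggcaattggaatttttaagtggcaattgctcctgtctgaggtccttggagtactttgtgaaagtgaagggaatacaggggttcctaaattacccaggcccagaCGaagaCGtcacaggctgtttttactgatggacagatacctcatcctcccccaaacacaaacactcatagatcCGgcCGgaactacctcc

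The Sema3c promoter held 39 CpG and was 78.4% G or C, while that of Sema3d held 4 and was 46.8% G or C. Those of Nrp1 (11 CpG, 64.4%) and Plxnd1 (16 CpG, 64.8%) lay between them. Over the 26 of the 31 genes with an entry the median was 15.5 CpG and 64.6% G or C, against 6.0 CpG and 52.0% over 27025 promoters. The larger set was not limited to protein-coding or expressed genes, so the medians do not compare like sets. The AP-1 motif TGANTCA, read on both strands, was in 6.87% of all promoters and in those of Sema4c and Sema4d, and in none of the 4 shown. The STAT motif TTCNNNGAA was in 7.18% of all promoters and in none of the 26. The tested members of class 3 on chromosome 5 lie near each other in GRCm39, Sema3d (chr5:12433352-12638915), Sema3a (chr5:13175381-13652533), Sema3e (chr5:14075290-14306703) and Sema3c (chr5:17779279-17935266), all on the plus strand. A second pair lies on chromosome 9, Sema3b (chr9:107474873-107486428) and Sema3f (chr9:107558699-107587674), both on the minus strand, with Plxnb1 (chr9:108924457-108948985, plus strand) nearby.

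Untreated cells expressed secreted ligands, plexins of types A, B and D and both neuropilins. Per kilobase of transcript, Plxnb2, a receptor of class 4 semaphorins, had the highest mean level of the 31 genes, 130.2 ± 48.2 CPM per kb (SD, n = 3 lines). Sema3c, a secreted ligand that signals through neuropilins with Plxna or Plxnd1, followed with 105.3 ± 56.5, and the secreted ligand Sema3f, which binds Nrp2, with 48.3 ± 23.9 CPM per kb. The SDs of these 3 genes overlap in part, so that the order of Plxnb2 and Sema3c is within the spread between lines. Sema4b (29.6 ± 8.84), the lipid-anchored Sema7a (25.8 ± 38.5), Nrp2 (24.7 ± 2.31) and Nrp1 (20.03 ± 16.8 CPM per kb) came next. Nrp2 varied little between the untreated lines, and Sema7a by more than its mean.

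**Figure D1:**
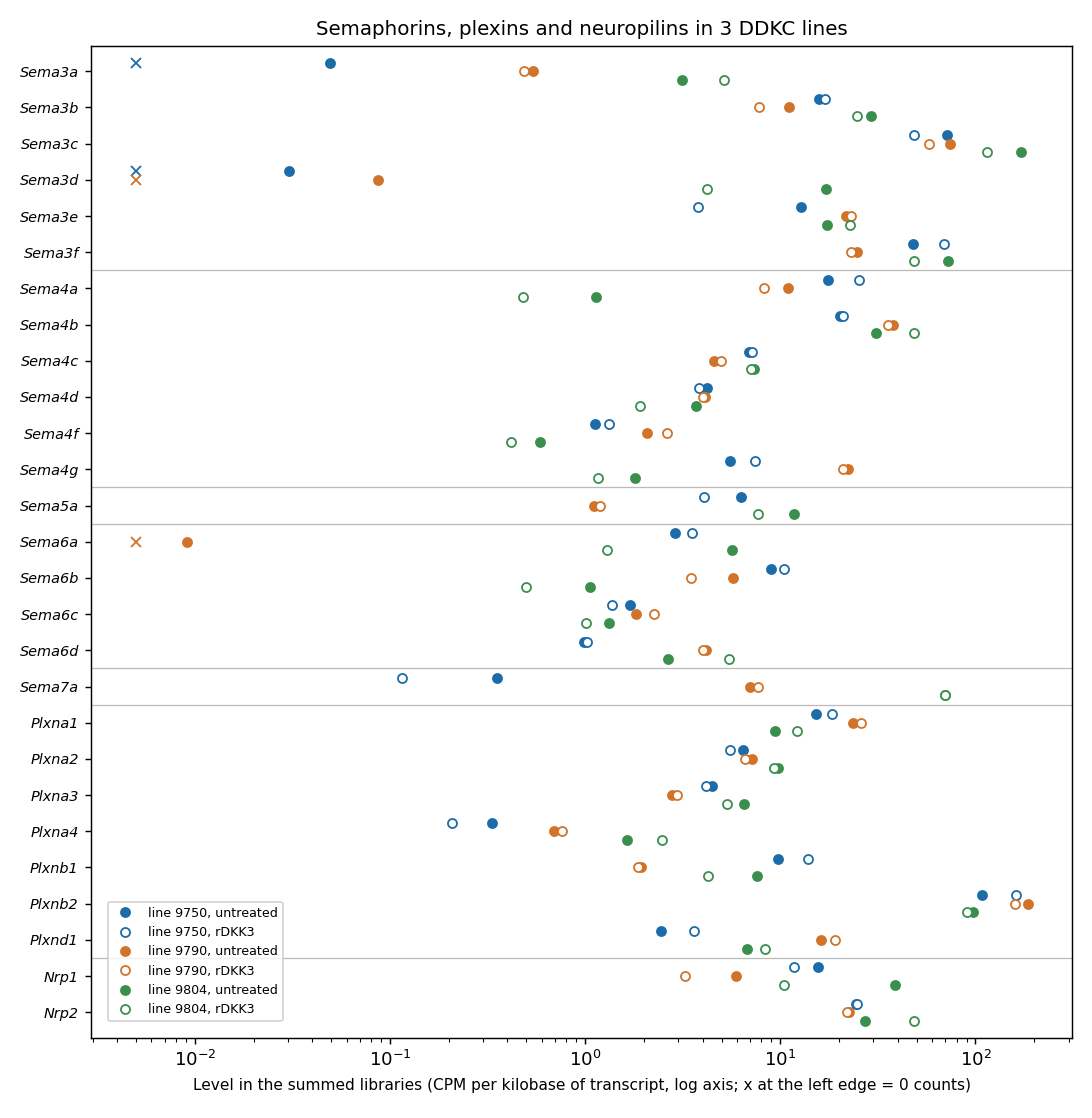
Level of the 27 tested genes in each line and condition, in CPM per kilobase of transcript on a log axis, untreated filled and rDKK3 open, with crosses at the left edge for 0 counts; horizontal lines part semaphorin classes 3, 4, 5, 6 and 7, plexins and neuropilins. Plxnb2 and Sema3c lie at the right in all 3 lines, whereas Sema3a, Sema3d, Sema6a and Sema7a are spread over the width of the plot by line.

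Plxnb2 made up 68.4% to 78.1% of all plexin transcripts per kilobase in the 6 line and condition sums, and Plxna1 to Plxna4 together 13.7% to 22.1%. Plxnd1, the receptor of Sema3e, made up 1.67% of them in untreated DDKC_9750 cells, 6.78% in DDKC_9790 and 4.87% in DDKC_9804. Class 3 made up 65.9%, 56.5% and 69.2% of all semaphorin transcripts per kilobase in untreated DDKC_9750, DDKC_9790 and DDKC_9804 cells, and Sema3c alone 48.4%, 56.1% and 55.1% of class 3. With rDKK3, Sema3f (50.1%) exceeded Sema3c (34.9%) in DDKC_9750. Sema7a, by contrast, made up 0.157%, 3.001% and 15.7% of the semaphorins in the same 3 lines.

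The largest differences in the 3 families were between lines. Of the 27 genes tested, 21 differed between the 3 lines (edgeR quasi-likelihood F test, adjusted p under 0.05), against 31.7% of all 17526 genes tested and 37.5% of the protein-coding genes at or above the lowest average level of a tested member. Sema4c, Sema4d, Sema6c, Sema3e, Nrp2 and Plxnb2 did not pass the threshold. Between pairs of lines, 14 genes differed between DDKC_9790 and DDKC_9750 (background 23.9%), 15 between DDKC_9804 and DDKC_9750 (16.9%) and 18 between DDKC_9804 and DDKC_9790 (19.3%). Of the 21, 12 were highest in DDKC_9804, 5 in DDKC_9790 and 4 in DDKC_9750, against 27.7%, 39.7% and 32.6% of all 5557 genes called. Without line DDKC_9790 the count was 11 members and 1702 of all genes, against 5557 of all genes with the 3 lines. Sema3d, Sema3a, Sema6a and Sema7a passed the filter only through the lines in which they were high, so counts over the tested genes, and the line tests of these 4, favor such patterns.

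Among the secreted class 3 ligands, Sema3d, a guidance cue for endothelial and neural crest cells, was a transcript of line DDKC_9804. The untreated libraries of DDKC_9804 held 121 and 107.5 CPM and the rDKK3 libraries 27.9 and 27.8 CPM. Line DDKC_9750 held 0.174 and 0.218 CPM untreated and 0 counts with rDKK3, and line DDKC_9790 held 0.567 and 0.578 CPM untreated and 0 counts with rDKK3. All libraries of DDKC_9804 thus lay far above those of the other two lines, and the fitted log2 differences rest on the prior count in the lines near 0. Sema3a, a repellent that acts through Nrp1 and Plxna, had the same order of lines, with 23.2 and 23.2 CPM untreated and 41.2 and 37.3 CPM with rDKK3 in DDKC_9804. In DDKC_9790 it had 3.97 and 4.11 CPM untreated and 4.27 and 3.24 with rDKK3, and in DDKC_9750 0.434 and 0.328 CPM untreated and 0 counts with rDKK3. The 3 lines did not overlap, and DDKC_9804 exceeded DDKC_9790 by 2.99 ± 0.50 on the log2 scale (SE). The filter favors the line test of Sema3a, as said above.

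The other class 3 ligands were present in every line. Sema3c stood at 424, 439 and 1012 CPM in untreated DDKC_9750, DDKC_9790 and DDKC_9804 sums, and DDKC_9804 exceeded DDKC_9750 by 1.25 ± 0.15 (log2, SE; adjusted p = 0.00647, edgeR). Sema3b, a ligand with a tumor suppressor record, was lowest in DDKC_9790 (41.0 CPM untreated) and highest in DDKC_9804 (107.5 CPM), a log2 difference of 1.52 ± 0.19 (adjusted p = 0.00651, edgeR). Its neighbor Sema3f was also lowest in DDKC_9790, 83.8 CPM against 162 in DDKC_9750 and 246 in DDKC_9804. Plxnb1 on the same chromosome was also lowest in DDKC_9790, as given below, but Sema7a, on chromosome 9 as well, was lowest in DDKC_9750. Of the genes called between lines, Nrp1, Sema5a, Sema6a and Plxna3 on other chromosomes were lowest in DDKC_9790 too. Sema3e stood at 87.4, 149 and 119 CPM in the untreated sums, and its line test did not pass (adjusted p = 0.114, edgeR).

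Transmembrane class 4 semaphorins differed between lines in Sema4a, Sema4g, Sema4f and Sema4b. Sema4a, known as a regulator of T cell responses, held 59.4 and 55.1 CPM in untreated and 80.2 and 82.5 in treated DDKC_9750 libraries. In DDKC_9790 it held 35.6 and 35.7 CPM untreated and 28.5 and 25.3 with rDKK3, and in DDKC_9804 3.82 and 3.55 CPM untreated and 1.71 and 1.47 with rDKK3. The order DDKC_9750, DDKC_9790, DDKC_9804 was kept in both conditions without overlap, and DDKC_9804 lay below DDKC_9750 by a log2 difference of -4.69 ± 0.43 (adjusted p = 0.00281, edgeR). Sema4g peaked in DDKC_9790 instead, with 100.3 and 103 CPM untreated and 94.6 and 95.5 with rDKK3, against 24.3 and 26.0 untreated and 33.2 and 33.8 treated in DDKC_9750. It was lowest in DDKC_9804, at 8.07 and 8.18 CPM untreated and 5.76 and 5.08 with rDKK3, a log2 difference to DDKC_9790 of -3.84 ± 0.28 (adjusted p = 0.00187, edgeR). The smaller Sema4f followed the order of Sema4g, at 5.90, 10.9 and 3.10 CPM in untreated DDKC_9750, DDKC_9790 and DDKC_9804 sums. Sema4b was lowest in DDKC_9750, with 77.2 CPM against 144 and 117. Sema4c (29.7, 19.8 and 31.7 CPM) and Sema4d (19.1, 18.6 and 16.7 CPM), the ligand of Plxnb1, did not pass the line test.

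Sema5a, a transmembrane ligand of Plxna and of proteoglycans, separated DDKC_9790 from the other two lines. Line DDKC_9804 held 130.3 and 126 CPM untreated and 86.0 and 83.0 with rDKK3, and line DDKC_9750 held 73.3 and 65.1 untreated and 44.1 and 44.3 with rDKK3. In DDKC_9790 the libraries held 11.8 and 12.3 CPM untreated and 12.7 and 13.1 with rDKK3, and DDKC_9804 exceeded DDKC_9790 by 3.04 ± 0.23 on the log2 scale (adjusted p = 0.00209, edgeR). Sema6a, a ligand of Plxna2 and Plxna4, was near absent from DDKC_9790, with 1 count in its 4 libraries. It reached 14.1 and 13.8 CPM untreated and 16.1 and 17.4 with rDKK3 in DDKC_9750, and 28.0 and 26.7 untreated and 6.61 and 6.01 with rDKK3 in DDKC_9804. The filter favors its line test, as said above. Sema6b ran 34.1 and 33.6 CPM untreated and 36.9 and 41.1 with rDKK3 in DDKC_9750, above 22.5 and 21.3 untreated and 12.4 and 13.6 treated in DDKC_9790. In DDKC_9804 it held 3.65 and 4.13 untreated and 2.13 and 1.74 with rDKK3, a log2 difference to DDKC_9750 of -3.67 ± 0.36 (adjusted p = 0.00345, edgeR). Thus Sema4a and Sema6b shared an order of lines that ran opposite to that of Sema3a. Sema6d was lowest in DDKC_9750 (6.57 CPM untreated against 27.6 in DDKC_9790 and 17.7 in DDKC_9804), and Sema6c stood at 6.60, 7.07 and 5.15 CPM and did not pass.

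Sema7a, which signals through integrins and Plxnc1, also separated all 3 lines. In DDKC_9804 it held 232 and 231 CPM untreated and 233 and 233 with rDKK3. In DDKC_9790 it held 24.2 and 23.1 CPM untreated and 27.0 and 24.5 with rDKK3, and in DDKC_9750 0.956 and 1.31 untreated and 0.248 and 0.467 with rDKK3. The 3 lines were fully apart in both conditions, with 1 and 3 counts in the rDKK3 libraries of DDKC_9750, and DDKC_9804 exceeded DDKC_9790 by 3.25 ± 0.27 (log2, SE). The filter favors the line test of Sema7a, as said above. Its plexin receptor Plxnc1 had 8 counts over all 12 libraries, with reads over exons shared with another gene of the same strand not counted.

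Among the plexins, 6 of 7 tested differed between lines. Plxnb1 held 103 and 95.4 CPM untreated and 144 and 136 with rDKK3 in DDKC_9750, and 77.0 and 75.5 untreated and 44.6 and 42.2 treated in DDKC_9804. In DDKC_9790 it held 22.4 and 18.4 CPM untreated and 17.8 and 19.3 with rDKK3, a log2 difference to DDKC_9750 of -2.64 ± 0.33 (adjusted p = 0.00687, edgeR). Plxna4, a receptor of class 3 and 6 semaphorins, was highest in DDKC_9804, with 22.3 and 20.4 CPM untreated and 33.1 and 31.9 with rDKK3. It held 10.8 and 8.16 untreated and 10.4 and 9.54 treated in DDKC_9790, and 4.08 and 4.48 untreated and 2.72 and 2.65 treated in DDKC_9750, so that the lines did not overlap (adjusted p = 0.00717, edgeR). Plxnd1 and Plxna1 were highest in DDKC_9790. The log2 difference of Plxnd1 between DDKC_9790 and DDKC_9750 was 2.56 ± 0.16 (adjusted p = 0.00157, edgeR). Plxna2 stood at 71.6, 79.0 and 108 CPM and Plxna3 at 30.9, 19.4 and 45.1 CPM in the untreated sums, both highest in DDKC_9804. Plxnb2 was at 719, 1241 and 652 CPM and did not pass the line test (adjusted p = 0.0734, edgeR).

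Of the co-receptors, Nrp1, which also binds VEGF, differed between lines and Nrp2 did not pass. Untreated Nrp1 was at 80.0, 30.3 and 198 CPM in the DDKC_9750, DDKC_9790 and DDKC_9804 sums, and DDKC_9804 exceeded DDKC_9790 by 2.26 ± 0.36 over both conditions (log2, SE; adjusted p = 0.013, edgeR). Nrp2 was at 165, 153 and 184 CPM (adjusted p = 0.111, edgeR). The SD of the untreated lines was 16.8 CPM per kb for Nrp1 and 2.31 for Nrp2.

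Cell state markers also differed between lines. The mesenchymal list Vim, Cdh2, Fn1, Zeb1, Zeb2, Twist1 and Snai2 summed to 7726, 11610 and 20560 CPM in untreated DDKC_9750, DDKC_9790 and DDKC_9804 cells, and to 7511, 10980 and 22360 CPM with rDKK3. Its genes moved in both directions, Vim from 2602 to 1589, 4899 to 3426 and 3334 to 2747 CPM and Zeb2 from 16.3 to 32.1, 39.7 to 48.4 and 87.3 to 153 CPM in the same order of lines, with Fn1 also higher and Twist1 lower in each. Snai2 went from 12.6 to 42.8 CPM in DDKC_9804. The epithelial list summed to 5695, 10010 and 5262 CPM untreated. The fibroblast list summed to 51.2, 9.45 and 7.09 CPM untreated, and with rDKK3 to 133, 11.8 and 5.72 CPM. In DDKC_9750 Acta2 went from 38.2 to 125 CPM but Col1a1 from 11.2 to 6.59 and Pdgfra from 1.70 to 0.669 CPM. The Schwann cell and neuron list summed to 9.83, 4.13 and 37.2 CPM untreated, and with rDKK3 to 16.7, 2.82 and 26.9 CPM. The acinar list, with Ptf1a, Cpa1, Cel and Amy2a1 at 0 counts, summed to at most 11.9 CPM. The part of these markers in the line differences and in the rDKK3 differences was not tested, and each line is 1 tumor line, so a difference between lines cannot be told apart from one between any other features of those lines.

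For rDKK3 none of the 27 genes passed the threshold over the 3 lines (lowest adjusted p = 0.563, edgeR quasi-likelihood F test with the line as a block), whereas 21 passed between lines. In the same fit 1 of 17526 genes passed (0.00571%). At an unadjusted p under 0.05 there were 4 members, Sema3d, Sema3c and Nrp1 lower and Plxnd1 higher, against 8.11% of all genes, and DESeq2 on the same sums called 0 members. The fitted difference was positive for 10 genes and negative for 17, with a median of -0.10 against -0.01 for all genes (log2). The members' median was -0.0015 without line DDKC_9804. Treating the 12 libraries as separate samples, 6 members passed, Sema3d, Sema3c, Nrp1 and Sema5a lower and Plxna1 and Plxnd1 higher. The background was 18.1% of genes (10.1% lower and 7.95% higher), so that 6 of 27 is a share near that of all genes. The residual of that fit mixes the spread between repeats with the spread of the rDKK3 difference between lines. Repeats enter it as if independent, so its p-values rest on more samples than the 3 lines. In all 3 lines the treated libraries lay below the untreated ones without overlap for Nrp1, Sema3c and Sema3d (background 8.11%) and above them for Plxna1 and Plxnd1 (background 4.47%). Of the 27 genes, these 3 and 2 are shares near those of all genes tested, which were not matched for level. For Sema3d only DDKC_9790 and DDKC_9804 bear on its direction, since its untreated libraries of DDKC_9750 lay under the floors of the treated ones.

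Nrp1 showed the largest such difference among genes with counts in every library. In line DDKC_9750 the untreated libraries held 82.2 and 79.4 CPM and the rDKK3 libraries 60.1 and 60.1. In DDKC_9790 they held 28.9 and 31.2 CPM untreated and 17.1 and 16.3 with rDKK3, and in DDKC_9804 205 and 194 untreated and 53.1 and 54.0 with rDKK3. All treated libraries lay below the untreated ones of their line, by 1.33-fold in DDKC_9750, 1.82-fold in DDKC_9790 and 3.72-fold in DDKC_9804. The log2 fold change over lines was -1.06 ± 0.29 (SE, n = 3 lines; unadjusted p = 0.0111, adjusted p = 0.565, edgeR), and it was -0.62 without line DDKC_9804. In the 12-library fit it was -1.06 ± 0.20 (adjusted p = 0.00558, edgeR). Mir1903 lies within Nrp1 on the same strand, and reads over exons of both are given to neither in the counting mode used.

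Nrp2 did not follow Nrp1. It held 169 and 164 CPM untreated and 176 and 160.1 with rDKK3 in DDKC_9750, and 158 and 152 untreated and 149 and 147 treated in DDKC_9790. In DDKC_9804 it held 189.5 and 179.6 CPM untreated and 331 and 329.6 with rDKK3, 1.79-fold higher. The libraries of DDKC_9750 overlapped, and the fit over lines gave 0.27 ± 0.20 (log2, SE; adjusted p = 0.74, edgeR). Nrp1's share of neuropilin transcripts per kilobase was 39.0% untreated and 32.3% with rDKK3 in DDKC_9750, 20.7% and 12.9% in DDKC_9790, and 58.7% and 17.6% in DDKC_9804. In DDKC_9804 the order of the co-receptors thus turned from more Nrp1 to more Nrp2.

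**Figure D2:**
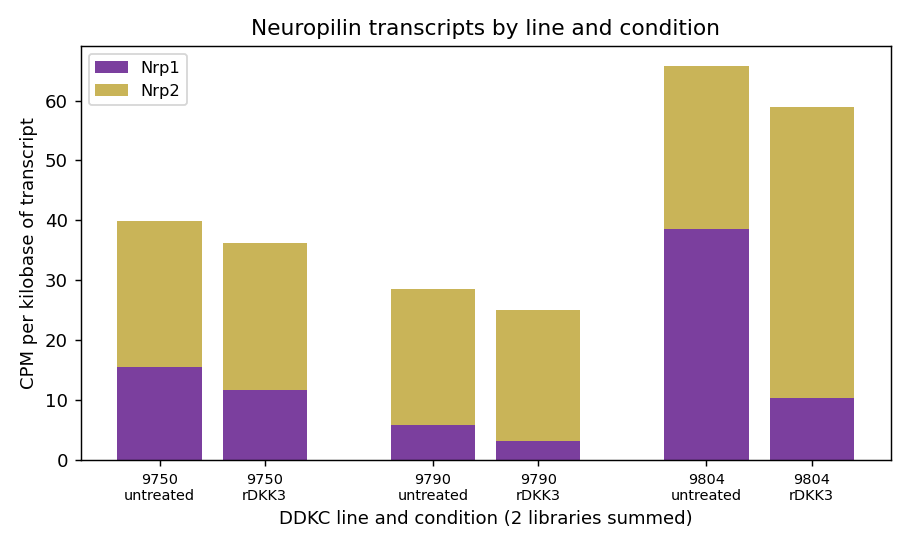
Nrp1 and Nrp2 stacked in CPM per kilobase of transcript for each line and condition, 2 libraries summed per bar. The Nrp1 segment is shorter with rDKK3 in each line, from 38.6 to 10.4 CPM per kb in DDKC_9804, while the Nrp2 segment of DDKC_9804 grows from 27.2 to 48.6.

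The secreted ligand Sema3c was lower with rDKK3 by a similar factor in the 3 lines. It held 446 and 414 CPM untreated and 296.5 and 280.1 with rDKK3 in DDKC_9750, 456.5 and 435.5 untreated and 361 and 333 treated in DDKC_9790, and 1058 and 982 untreated and 703 and 674.5 treated in DDKC_9804. The treated libraries lay below the untreated ones in each line, 1.48-fold, 1.27-fold and 1.48-fold. The log2 fold change was -0.49 ± 0.13 (SE, n = 3 lines; unadjusted p = 0.008, adjusted p = 0.565, edgeR), with -0.57 to -0.44 on leaving out a line. In the 12-library fit it was -0.49 ± 0.06 (adjusted p = 0.00058, edgeR). Its share of class 3 transcripts per kilobase went from 48.4% to 34.9% in DDKC_9750, 56.1% to 51.8% in DDKC_9790 and 55.1% to 52.2% in DDKC_9804.

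Sema3d, whose library values are given above, went from 3998 to 339 counts in DDKC_9804, 4.06-fold on the CPM scale. In DDKC_9790 it had 13 counts untreated and 0 with rDKK3, at least 3.505-fold lower against a floor of 3 counts in the sum, and in DDKC_9750 6 and 0 counts, both under the CPM that 3 counts stand for in the treated sum, so no fold is given. The log2 fold change of the fit was -2.25 ± 0.41 (unadjusted p = 0.00174, adjusted p = 0.563, edgeR) and in the 12-library fit -2.14 ± 0.17 (adjusted p = 6.6e-05, edgeR). It was -3.26 with DESeq2, and without DDKC_9804 it was -6.15, which rests on 13 and 6 counts against 0 and on the prior count. It passed the threshold without line DDKC_9750 and without a filter on low counts, as given under the processing alternatives. Nearly all of its counts came from line DDKC_9804.

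Plxnd1 and Plxna1 were higher with rDKK3 in each line. Plxnd1 held 16.2 and 18.7 CPM untreated and 27.0 and 25.4 with rDKK3 in DDKC_9750, 109 and 121 untreated and 136 and 138 treated in DDKC_9790, and 45.0 and 50.4 untreated and 59.3 and 61.9 treated in DDKC_9804. The treated libraries lay above the untreated ones of each line, 1.47-fold, 1.18-fold and 1.24-fold, and the fit gave 0.36 ± 0.12 (unadjusted p = 0.0255, adjusted p = 0.593, edgeR). Plxna1 held 209 and 210.2 CPM untreated and 263 and 245 with rDKK3 in DDKC_9750, 325 and 326 untreated and 354 and 358 treated in DDKC_9790, and 129 and 129 untreated and 173 and 167 treated in DDKC_9804. Its folds were 1.21, 1.10 and 1.30, and the fit gave 0.26 ± 0.12 (unadjusted p = 0.0681, adjusted p = 0.642, edgeR). In the 12-library fit Plxnd1 stood at 0.38 ± 0.07 (adjusted p = 0.00354) and Plxna1 at 0.28 ± 0.05 (adjusted p = 0.00391, edgeR). Sema5a, whose library values are given above, was 1.53-fold lower in DDKC_9750 and 1.53-fold lower in DDKC_9804 and 1.07-fold higher in DDKC_9790 (fit -0.39 ± 0.18, adjusted p = 0.642, edgeR; -0.62 without DDKC_9790 and -0.26 without DDKC_9804).

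**Figure D3:**
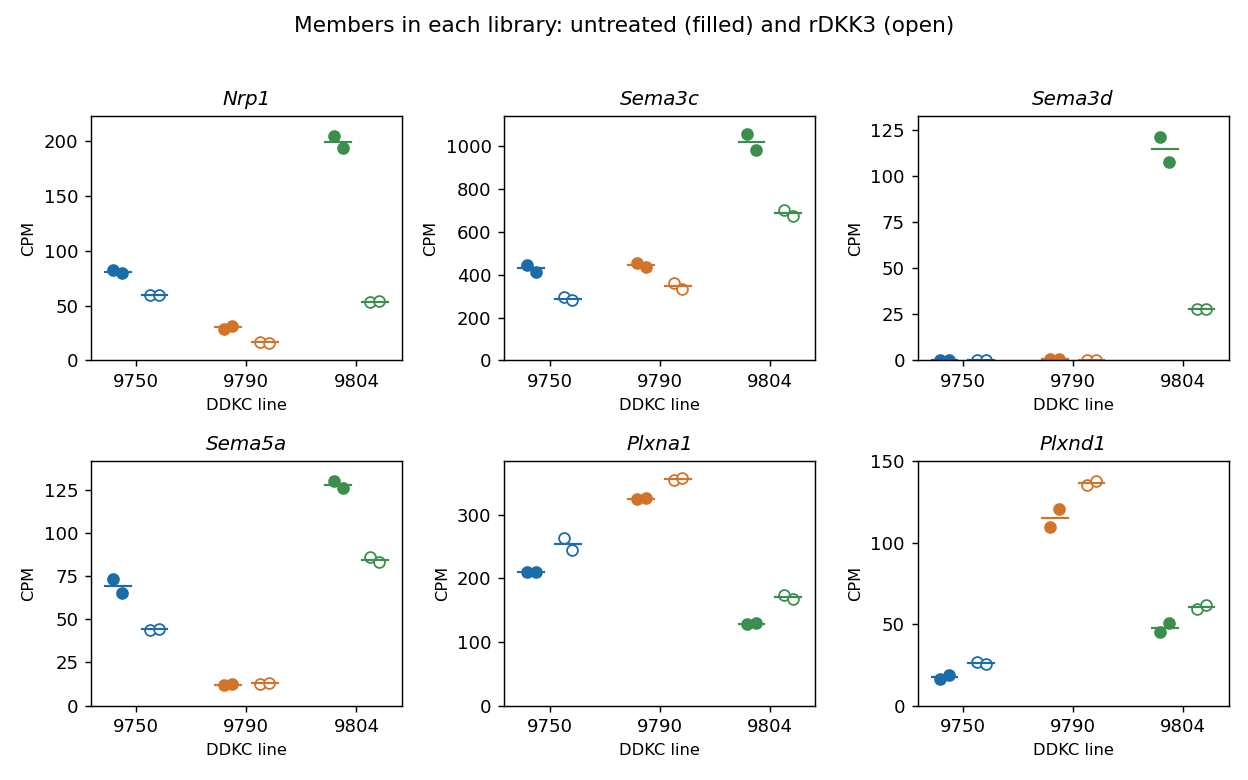
CPM of Nrp1, Sema3c, Sema3d, Sema5a, Plxna1 and Plxnd1 in each of the 12 libraries by line, untreated filled and rDKK3 open, with a bar at the mean of the 2 libraries. Open points lie below filled ones in each line for Nrp1 and Sema3c and above them for Plxna1 and Plxnd1, and Sema3d is visible in DDKC_9804 only.

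For most genes the treated libraries lay in opposite directions in different lines when differences of any size were counted. For 19 of the 27 genes they lay above the untreated ones in 1 line and below them in another. Only lines without overlap were counted (background 36.2%, not matched for level). Sema3a is among the 19 only through DDKC_9750, where it was under the floors of the treated libraries. Nrp2 is among them through a 1.03-fold difference in DDKC_9790. With at least 0.5 (log2) in both directions and more than 3 counts in each sum, 4 genes remained, as given below. The counts by line that follow set no minimum size either. In DDKC_9750, 11 genes were higher and 12 lower without overlap of the libraries (background 29.9% and 35.9%), Sema3d and Sema3a being under the floors among the lower ones, in DDKC_9790 8 and 13 (26.5% and 31.6%) and in DDKC_9804 9 and 17 (33.4% and 35.1%). Among protein-coding genes at or above the lowest average level of a tested member the background was 31.2% higher and 43.5% lower in DDKC_9750, 29.3% and 38% in DDKC_9790, and 37.9% and 40.4% in DDKC_9804. In DDKC_9804 the 17 lower genes comprised 13 of the 18 tested semaphorins, against 5 higher. The median log2 fold change of the 27 genes was 0.04, -0.06 and -0.29 in DDKC_9750, DDKC_9790 and DDKC_9804, against -0.02, -0.01 and -0.02 for all genes. No test was made within a line, where the summed repeats leave 1 sample per condition.

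Sema3e, the Plxnd1 ligand, was lower in DDKC_9750 only, with 90.1 and 86.5 CPM untreated and 24.01 and 27.1 with rDKK3, a 3.37-fold difference. It was 1.06-fold higher in DDKC_9790 (149 and 158 CPM in the sums) and 1.32-fold higher in DDKC_9804 (119 and 157 CPM). Sema3f went from 162 to 235 CPM in DDKC_9750, 83.8 to 77.9 in DDKC_9790 and 246 to 164.5 in DDKC_9804. Sema3b went from 58.5 to 62.7, 41.0 to 28.7 and 107.5 to 91.7 CPM in the same order of lines. Sema7a was level in DDKC_9804 and 3.05-fold lower in DDKC_9750, there on 35 and 4 counts.

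Of the 11 tested genes of classes 4, 5 and 6, the libraries of 5, Sema4a, Sema4f, Sema4g, Sema6a and Sema6b, lay in opposite directions in DDKC_9750 and DDKC_9804 (background 25.2%), and those of 3, Sema4d, Sema5a and Sema6c, were lower in both. Sema4a went from 56.4 to 81.6 CPM in DDKC_9750 and from 3.66 to 1.55 CPM in DDKC_9804, Sema4g from 25.2 to 33.5 and from 8.19 to 5.31, and Sema6b from 33.6 to 39.5 and from 3.997 to 1.88. Sema6a was 1.22-fold higher in DDKC_9750 and 4.40-fold lower in DDKC_9804. Sema4d was 1.93-fold lower in DDKC_9804 and within 1.10-fold in the other two. Sema6d and Sema4b were higher in the DDKC_9804 sums, from 17.7 to 36.4 and from 117 to 185 CPM, and were within 1.06-fold in the other two lines. Sema4c (from 29.7 to 30.7, 19.8 to 21.5 and 31.7 to 30.5 CPM), Sema4f (5.90 to 6.98, 10.9 to 13.9 and 3.10 to 2.21 CPM) and Sema6c (6.60 to 5.35, 7.07 to 8.80 and 5.15 to 3.92 CPM) lay within 1.40-fold of the untreated level in each line.

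Among the other plexins, Plxnb1 was 1.43-fold higher in DDKC_9750 and 1.78-fold lower in DDKC_9804. Plxnb2 was 1.5-fold higher in DDKC_9750 (719 to 1078 CPM), 1.16-fold lower in DDKC_9790 (1241 to 1066) and 1.07-fold lower in DDKC_9804 (652 to 607). Plxna4 was 1.61-fold lower in DDKC_9750 and 1.52-fold higher in DDKC_9804. Plxna2 was 1.17-fold, 1.09-fold and 1.05-fold lower in the 3 lines and Plxna3 within 1.22-fold in each.

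**Figure D4:**
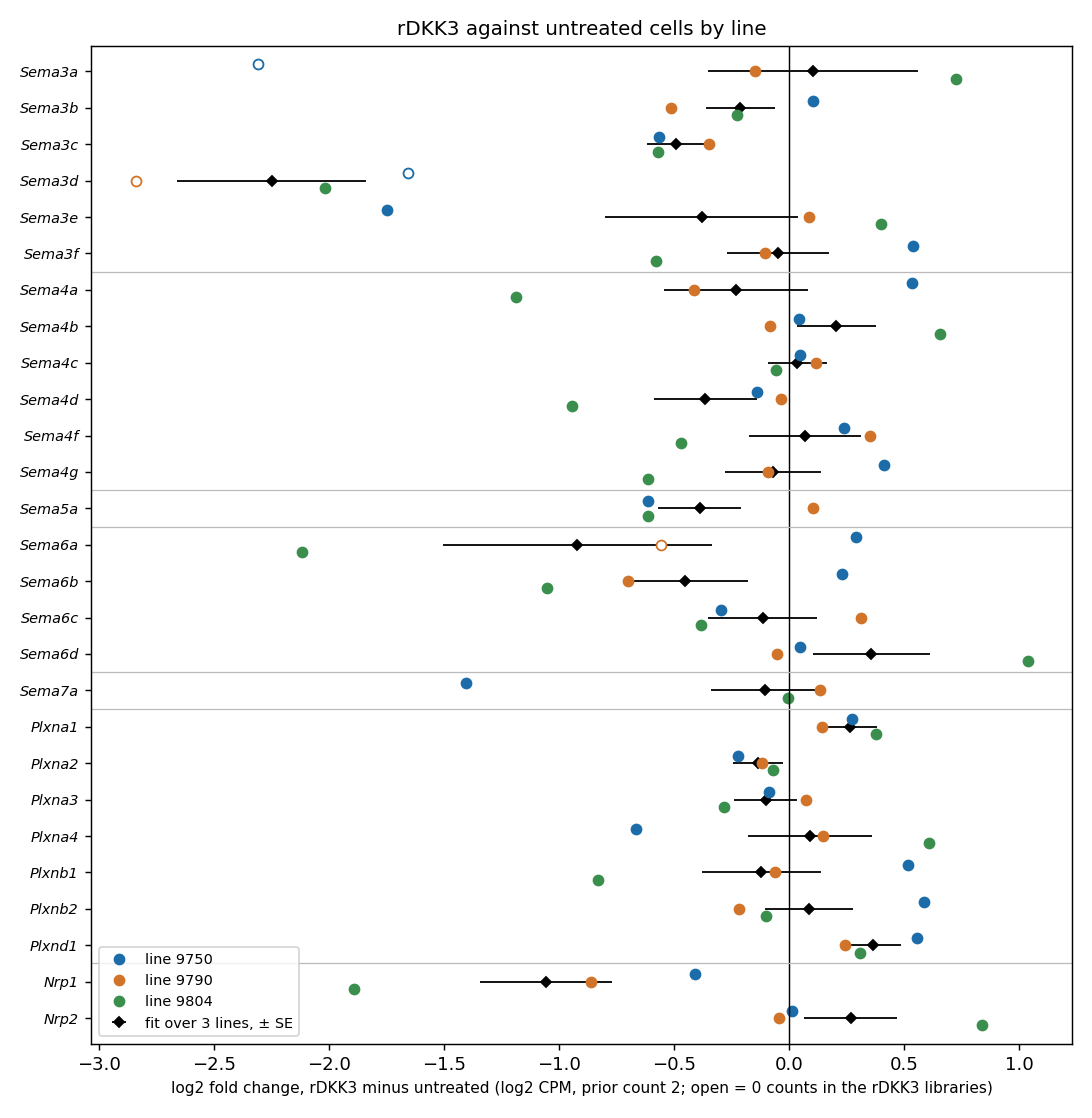
Log2 fold change of the 27 tested genes with rDKK3 in each line (circles, open where the rDKK3 sum is 0 counts and the value rests on the prior count of 2) and in the fit over 3 lines (diamonds, bars are the SE). The lines scatter on both sides of 0 for most genes, while Nrp1 and Sema3c lie left of 0 and Plxna1 and Plxnd1 right of it in all 3.

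Genes around the system were read from 2 lists of pathway genes, of which those called in the 12-library fit, at most 6 per list, are named, so that the named ones were picked by how they moved. Of 55 partners and effectors of semaphorin signaling, 47 were tested, 0 passed over the 3 lines, 4 had an unadjusted p under 0.05 (all genes 8.11%), and their median was 0.05 (log2, all genes -0.01). In the 12-library fit 3 were higher and 7 lower (all genes 7.95% and 10.1%), a share near that of all genes. Among them were Dpysl2 and Dpysl3, genes of the cytoskeletal CRMP proteins that act after Sema3a. Of the other CRMP genes listed, Crmp1 and Dpysl4 had 0 counts and Dpysl5 had 3. Dpysl2 was at 55.1, 55.8 and 59.5 CPM untreated and 42.1, 35.5 and 35.6 with rDKK3 in DDKC_9750, DDKC_9790 and DDKC_9804. Dpysl3 went from 269 to 129 in DDKC_9750, 105 to 79.7 in DDKC_9790 and 222 to 226 CPM in DDKC_9804. Rhob and Rhoa, small GTPases of the cytoskeleton, were lower in the sums of all 3 lines, Rhob from 330.3 to 213, 155 to 132 and 303 to 201 CPM and Rhoa from 500.2 to 412, 658 to 534 and 626 to 517.5. Rras, a GTPase that plexins inactivate, was lower in all 3, from 123 to 111, 173 to 127 and 162 to 118 CPM. Vegfa, the growth factor that shares Nrp1 with the class 3 semaphorins, was higher in all 3, from 247 to 353.5, 820 to 881 and 512 to 730.5 CPM. Dpysl2 had the lowest adjusted p of the 6 named here, 0.565 over lines (log2 fold change -0.60) and 0.000296 in the 12-library fit (edgeR).

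The slit, netrin and ephrin list, other guidance families, had 41 genes, of which 28 were tested and 0 passed over lines. Its median was 0.02 (log2), 2 genes had an unadjusted p under 0.05 (all genes 8.11%), and in the 12-library fit 1 was higher and 4 lower (all genes 7.95% and 10.1%), again a share near that of all genes. Slit2, the ligand of Robo receptors, was lower in the sums of all 3 lines, from 59.8 to 49.1, 38.6 to 28.1 and 164 to 130.4 CPM. Ephb4, an ephrin receptor, went from 270.5 to 220.2, 160.1 to 155.5 and 352 to 227 CPM. The netrin receptor Unc5c was at 0 in DDKC_9750 and went from 1.36 to 0.76 CPM in DDKC_9790 and 14.3 to 4.17 in DDKC_9804, Unc5b from 514 to 303.5, 452 to 472 and 647 to 480 CPM, and the ligand Ntn1 from 5.66 to 28.5 CPM in DDKC_9750 while staying near 1 CPM or less elsewhere. Between lines, 19 of the 47 partner genes (40.4%) and 16 of the 28 genes of the other families (57.1%) differed, against 31.7% of all genes.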

How the data were processed

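RNA-seq read counts per gene were deposited by the authors as a raw table for 12 libraries of 3 DDKC lines. Reads from a directional kit, sequenced as 50-base pairs, were mapped by them to GRCm39 with STAR 2.7.9a and the basic GENCODE M32 annotation, and counted over exons by strand with secondary alignments ignored. The 92 spike-in entries, which held 0 counts, were left out. The genes and lists were chosen with earlier results of these data known. The 2 libraries of each line and condition were summed, giving 6 sums. The repeats were checked by a chi-square deviance over genes averaging 20 counts or more.

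edgeR 4.0.16 (R 4.3.3) fitted line and treatment with TMM scaling and its low-count filter, and p-values were adjusted by Benjamini-Hochberg over all genes at a threshold of 0.05. The pairing came from the line named in the titles, and sums of the same line deviated together (r = 0.784, 0.835 and 0.762, at most -0.259 between lines). Levels are CPM, and log2 values used a prior count of 2. Lengths were those of Ensembl canonical transcripts in GENCODE M39. Library totals set the precision, and floors cover counting error only. The fit was tested on simulated data. Alternatives were DESeq2 1.42.0, other scaling and filters, 12 separate libraries, single libraries, thinning, no block and each line left out. Values in every library were given for genes called between lines with the 10 largest ranges and for genes with an unadjusted p under 0.05 for rDKK3 over lines or an adjusted p under 0.05 in the 12-library fit. A further allele of the genotype, shared by all libraries, is not reported here.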

Additional observations from a re-analysis of the deposited data

Results flagged for a closer look

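Of the 27 tested genes, 4 had rDKK3 differences of at least 0.5 (log2) in opposite directions in lines DDKC_9750 and DDKC_9804 with no overlap of the libraries in either line and more than 3 counts in each of the 4 sums. This held for 3.63% of all genes tested, and for 5.67% over any pair of lines. Sema3a, with 11 and 0 counts in DDKC_9750, was left out for its counts. The difference between the lines was not tested, since the summed repeats leave 1 sample per line and condition. Plxna4 was lower in DDKC_9750 (-0.67) and higher in DDKC_9804 (0.61), 1.27 apart. Plxnb1 was higher in DDKC_9750 (0.51) and lower in DDKC_9804 (-0.83), 1.35 apart, Sema3f 0.54 and -0.58, 1.12 apart, and Sema4a 0.53 and -1.19, 1.72 apart.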

How the results depend on the processing

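Under the alternatives, the rDKK3 fit over lines was followed for Nrp1, Plxna1, Plxnd1, Sema3c, Sema3d and Sema5a. The line difference was followed between the highest and lowest line of each tested gene. None of these changed direction. Of the differences within a line, 10, none above 0.215 in size (log2), changed sign under 1 or more alternatives. Scaling by DESeq2's size factors changed no count of calls for members. For rDKK3 the members called were 6 with the 12 libraries as separate samples and the replicate block, 1 (Sema3d) without a filter, and 0 to 1 on leaving out a line, Sema3d passing without DDKC_9750. Genes called for rDKK3 numbered 2744 with 12 libraries, 90 without a filter, 0 with at least 10 counts in every sum, 6 with the lower-numbered and 2 with the higher-numbered libraries, 4 after thinning to the smallest total, 94 with DESeq2 on the sums, 0 with no replicate block (6 sums or 12 libraries), and 0 to 25 on leaving out a line. Between lines, 11790 genes were called with 12 libraries, and leaving out a line gave 1702 to 5584 genes and 11 to 22 members (lowest without DDKC_9790), the block of the paired lines being kept. The Sema3d log2 fold change was -6.15 without DDKC_9804 (on 13 and 6 counts against 0) and -3.26 with DESeq2. Of the single-gene results followed, 6 passed the threshold for rDKK3 and 6 between lines only under 1 or more alternatives. Of the line differences followed, 2 lost it under one (Plxna2 and Sema4b without DDKC_9790). Over all tested members, 15 passed between DDKC_9804 and DDKC_9750 with the 3 lines and 11 without DDKC_9790. The members' median log2 fold change for rDKK3 was -0.0015 without DDKC_9804 and -0.0065 with no replicate block. After thinning, 0 members were called for rDKK3 and 21 between lines, and counts limit what can be said of Sema3d, Sema3a, Sema6a and Sema7a in the lines where they are near 0.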
